A study of Mus musculus with 24 samples.

Results

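Collagen processing and crosslinking was followed through 8 genes: the prolyl 4-hydroxylase subunits P4ha1, P4ha2 and P4hb, the collagen chaperone Serpinh1, the lysyl oxidases Lox and Loxl1, and the propeptide-processing genes Bmp1 and Pcolce. All probe sets annotated to these genes were taken, which gave 12 of the 12488 probe sets on the array. Of these, 11 passed the filter on dim signal and were tested. The second Lox probe set (161177_f_at) was not tested, because it was above the filter on 1 array only, with intensities between 57.7 and 267.

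The samples were mouse lung RNA on an Affymetrix expression array, which reads each gene with 1 or more probe sets. Mice of the strains C57BL/6J and BALB/c received bleomycin at 1.5 U per kg into the trachea, or saline by the same route, and lungs were taken at 24 h, 72 h or 14 d. Each of the 12 groups of strain, treatment and time had 2 arrays (a and b), 24 in all. The ages of the mice are not given in the sources used here, and neither is whether the arrays of a group came from separate animals. P-values therefore measure only the spread between the 2 arrays of a group, which may be technical. Bleomycin is a DNA-damaging drug used to produce lung fibrosis in mice, and C57BL/6J is known as a fibrosis-prone strain and BALB/c as a resistant one.

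Fibrillar collagen is modified in the endoplasmic reticulum and again outside the cell. Prolyl 4-hydroxylases convert prolines of the new chains to hydroxyproline, which stabilises the triple helix, and the chaperone HSP47 (Serpinh1) binds the folded procollagen. After secretion, BMP1 removes the C-terminal propeptide with the help of the enhancer protein PCOLCE, and lysyl oxidases oxidise lysines so that the fibrils become crosslinked. In the lung fibrillar collagen is made mainly by fibroblasts and other mesenchymal cells. In whole lung, a change in the number of cells that express a gene and a change in RNA per cell cannot be told apart.

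Array medians ran from 314 to 409, and the arrays of a group correlated with each other at 0.926 to 0.979. Some arrays stood apart. H2-Ea, an MHC class II gene that C57BL/6J mice do not express, was at 25.6 to 166 on 10 C57BL/6J arrays and at 2920 to 6070 on 10 BALB/c arrays, but the saline 72 h pair labelled C57BL/6J read 4820 and 3620 and the pair labelled BALB/c read 89.5 and 48.3. These 4 arrays went against their strain labels, so the calls and counts that rest on them are given with and without them. Titles and descriptions disagree on the treatment of the BALB/c saline groups of 72 h (bleomycin in the description) and 24 h (either agent), and the titles were followed. The C57BL/6J saline 24 h arrays carry a title ending that the others do not, and their brightest probe sets reached 43230 and 78641, against 6888 to 21462 on the others. C57BL/6J bleomycin 14 d array a has a further title ending of its own. Cdkn1a was higher after bleomycin than after saline at each time in both strains. It was at 1430 and 1480 on the C57BL/6J saline 14 d arrays, against 482 to 1190 on all other saline arrays. The BALB/c bleomycin 14 d arrays read 1580 and 1230. The C57BL/6J saline 14 d arrays are the control for the C57BL/6J effects at 14 d and enter the strain differences there. What their state adds to these results was not tested. The surfactant transcripts varied widely: Sftpb lay between 177 and 26200 and Sftpc between 5.78 and 78600, lowest on array b of the BALB/c bleomycin 14 d group. Sftpc was also below the filter level of 225.7 on C57BL/6J saline 14 d array b (127) and C57BL/6J saline 72 h array a (180). Lung identity was thus not visible in these transcripts on every array.

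**Figure D1:**
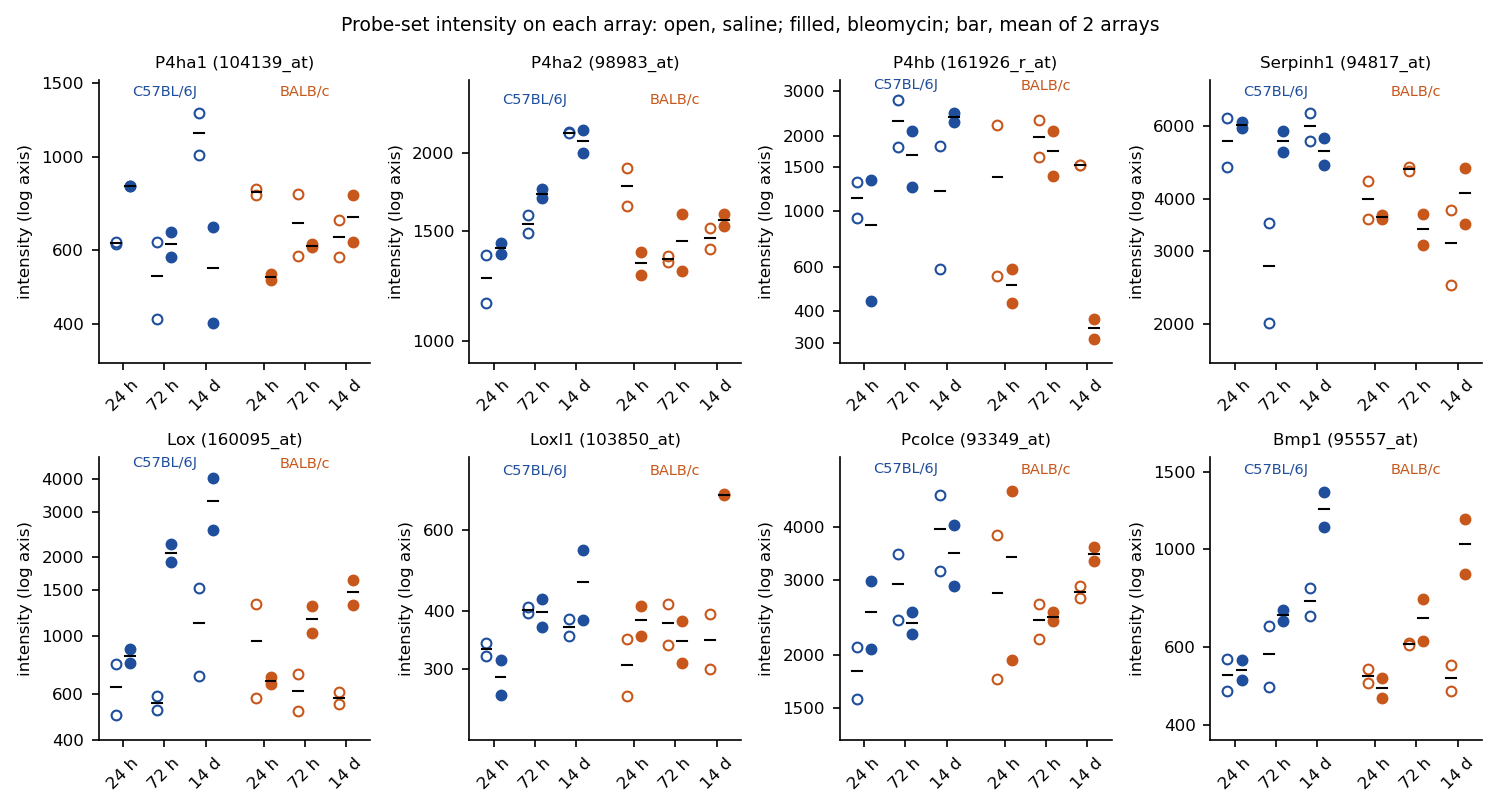
Intensity (log axis) of the brightest probe set of each of the 8 genes on every array, by strain and time, with saline arrays open, bleomycin arrays filled and a bar at the mean of the 2 arrays of a group. Lox and Bmp1 stand higher after bleomycin at 14 d in both strains, Loxl1 stands out in BALB/c, and the 2 C57BL/6J saline 14 d arrays carry the highest P4ha1 signals, 1012 and 1273.

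P4ha1, P4ha2 and P4hb together form the collagen prolyl 4-hydroxylase, with P4ha1 and P4ha2 as alternative catalytic subunits and P4hb (protein disulfide isomerase) as the subunit shared by both. The 250 bases before the start site of each, and of Serpinh1, are shown. They were chosen because these 4 genes encode the steps inside the endoplasmic reticulum and each window holds 1 match to ACGTG. These letters are a form of the core of the hypoxia response element, through which prolyl hydroxylase genes are known to be regulated. Sequences are from RefSeq on GRCm38.p6, the C57BL/6J reference, written 5′ to 3′ on the gene's strand, with the ACGTG match or its reverse complement in capitals. P4ha1 is at chr10:59323046-59323295 on the plus strand, P4ha2 at chr11:54100674-54100923 on the plus strand, P4hb at chr11:120573254-120573503 on the minus strand and Serpinh1 at chr7:99353240-99353489 on the minus strand.
P4ha1: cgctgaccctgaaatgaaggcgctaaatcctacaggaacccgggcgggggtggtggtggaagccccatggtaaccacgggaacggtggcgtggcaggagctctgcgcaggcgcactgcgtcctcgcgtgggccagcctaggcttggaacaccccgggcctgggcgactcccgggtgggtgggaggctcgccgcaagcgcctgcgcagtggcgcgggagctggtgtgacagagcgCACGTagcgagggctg
P4ha2: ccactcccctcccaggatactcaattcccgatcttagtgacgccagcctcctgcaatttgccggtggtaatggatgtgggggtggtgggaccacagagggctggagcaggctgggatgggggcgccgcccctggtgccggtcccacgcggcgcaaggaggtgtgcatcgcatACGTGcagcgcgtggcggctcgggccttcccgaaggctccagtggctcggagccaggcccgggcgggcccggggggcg
P4hb: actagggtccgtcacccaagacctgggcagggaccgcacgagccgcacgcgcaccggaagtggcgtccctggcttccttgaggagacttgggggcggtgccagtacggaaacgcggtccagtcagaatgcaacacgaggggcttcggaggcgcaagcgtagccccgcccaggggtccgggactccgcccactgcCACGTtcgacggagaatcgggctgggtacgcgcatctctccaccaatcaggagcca
Serpinh1: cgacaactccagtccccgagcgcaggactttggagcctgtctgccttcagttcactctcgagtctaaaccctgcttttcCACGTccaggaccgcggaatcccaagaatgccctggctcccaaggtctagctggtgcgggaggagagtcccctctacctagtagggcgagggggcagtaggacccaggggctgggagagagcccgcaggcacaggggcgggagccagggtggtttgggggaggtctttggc
The match lay 16 bases before the start in P4ha1, 78 in P4ha2, 56 in P4hb and 171 in Serpinh1. On either strand, 16.6% of the 32851 promoter windows of the table held ACGTG, and the Pcolce window did not. The form GCGTG was not searched, and its reverse complement is present in the Pcolce window, so Pcolce is not shown to lack the core. GC content was 69.6% in the P4ha1 window, 70% in P4ha2, 66.8% in P4hb, 63.6% in Serpinh1 and 58.8% in Pcolce. The share over all windows was not matched for it. The heat shock element core GAANNTTC, searched on both strands because HSP47 is a heat shock protein, was in none of the 5 windows and in 6.69% of all of them. No window of Lox, Loxl1 or Bmp1 was examined. These matches describe letters in a window and are not evidence of binding.

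P4ha1 fell at 14 d in C57BL/6J and not in BALB/c. Its intensities were 1012 and 1273 on the C57BL/6J saline 14 d arrays and 402 and 681.9 on the bleomycin arrays. Those saline arrays were the 2 highest of all 24, and the other C57BL/6J saline arrays lay at 621 and 625.3 (24 h) and 628 and 409.3 (72 h). In BALB/c the 14 d values overlapped, at 707.8 and 577.3 after saline and 627.3 and 812.7 after bleomycin. The log2 difference was -0.99 ± 0.21 (SE) in C57BL/6J (limma adjusted p = 0.01) and 0.14 ± 0.21 in BALB/c (adjusted p = 0.706), and the strains differed in this effect by -1.13 ± 0.30 (adjusted p = 0.0346). With all C57BL/6J saline arrays as the control the C57BL/6J difference was -0.39 (adjusted p = 0.146), and it was no longer called without bleomycin array a, without saline array b or with array weights. The strain difference was not called after leaving out any 1 of these, BALB/c bleomycin 14 d array b or a BALB/c saline 14 d array, or with array weights, and with all saline arrays as the control it was -0.39 (adjusted p = 0.353).

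Heat shock genes moved on the same arrays. Hsph1, a heat shock protein of the HSP110 family, was at 2950 and 3590 on the C57BL/6J saline 14 d arrays and at 697 and 1430 after bleomycin, a log2 difference of -1.61 ± 0.32 (adjusted p = 0.00547). Of 9 heat shock genes tested, 5 fell in C57BL/6J at 14 d and 0 rose, beside 7.43% of all probe sets called, with a median of -0.62 against -0.07 over all genes. In BALB/c at 14 d 1 rose (Hspe1, the mitochondrial co-chaperonin, by 0.57) and 0 fell, a share near the 13.3% of all probe sets called there. Over the 24 arrays Hsph1 was among the 3 genes most like P4ha1, with r = 0.808. The part of this pattern in the P4ha1 result was not tested.

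**Figure D2:**
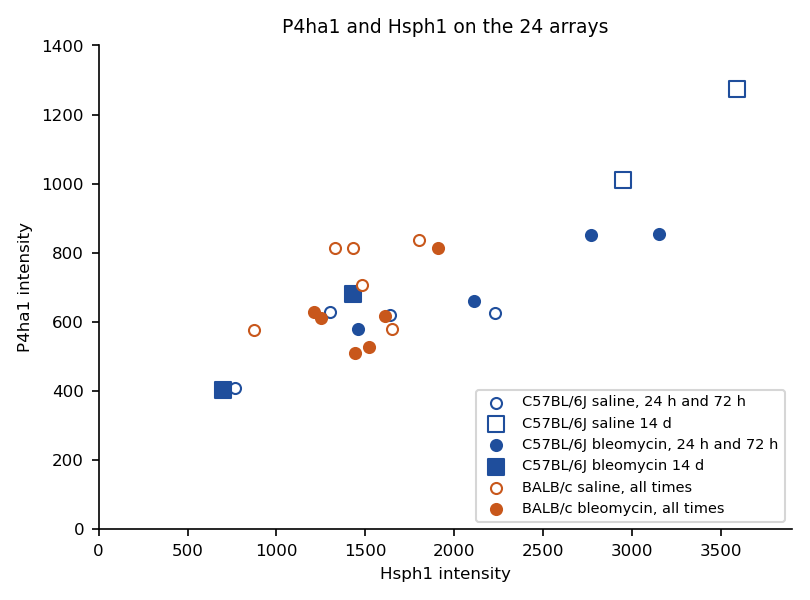
P4ha1 intensity against Hsph1 intensity, 1 point per array, saline open and bleomycin filled, with the C57BL/6J 14 d arrays as squares. The 2 open squares hold the highest P4ha1 values, 1012 and 1273, and 2 of the 3 highest Hsph1 values, and both filled squares lie below them on both axes.

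P4ha2 showed no called effect of bleomycin at any time in either strain as labelled. On its brighter probe set (98983_at) the 4 C57BL/6J arrays of 14 d were the highest of the 24, at 2163 and 2151 after saline and 2182 and 2004 after bleomycin. The C57BL/6J arrays of 24 h were lower in both treatments, at 1154 and 1373 after saline and 1439 and 1380 after bleomycin. After bleomycin at 72 h they were at 1695 and 1750. The saline 72 h pair labelled C57BL/6J read 1592 and 1493, and the pair with the H2-Ea level of C57BL/6J read 1341 and 1370, which overlapped saline 24 h. The bleomycin effect was 0.15 ± 0.13 at 24 h, 0.15 ± 0.13 at 72 h (0.06 ± 0.12 without the saline 72 h arrays) and -0.04 ± 0.13 at 14 d. BALB/c lungs were at 1894 and 1645 after saline at 24 h and at 1520 and 1406 at 14 d. After bleomycin they were at 1277 and 1391 at 24 h, 1298 and 1598 at 72 h and 1529 and 1596 at 14 d, a narrower range in which neighbouring times overlapped. Against the C57BL/6J saline 14 d arrays in place of those of 24 h, the 24 h difference turned to -0.58 (adjusted p = 0.0142). The second P4ha2 probe set (162188_f_at) ranged from 446.6 to 906.1, was called in no comparison, and correlated with the first at r = 0.343.

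P4hb was read by a bright but variable probe set (161926_r_at) and by a dim one (93108_at). On the first, BALB/c lungs were at 1533 and 1532 after saline at 14 d and at 373.7 and 311.2 after bleomycin. The bleomycin arrays were the lowest of the 24, and the log2 difference was -1.91 ± 0.53 (adjusted p = 0.0251). C57BL/6J lungs at 14 d were at 1813 and 592.5 after saline and at 2474 and 2261 after bleomycin, a difference of 1.11 ± 0.53 that was not called (adjusted p = 0.229). The strains differed in the 14 d effect by 3.01 ± 0.75 (adjusted p = 0.0268). The arrays of a single group could lie far apart on this probe set, for example 550.8 and 2200 in BALB/c saline 24 h. Without bleomycin array b or either saline array of 14 d the BALB/c call was lost. The strain difference was not called after leaving out any 1 of these 3, C57BL/6J bleomycin array a or saline array b, or with array weights (adjusted p = 0.0836).

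The dim P4hb probe set gave a smaller value in BALB/c at 14 d, -0.51 ± 0.24 (adjusted p = 0.179), from 123.8 and 179.1 after saline to 53.1 and 107 after bleomycin. It was above the filter on 7 arrays, and its strain difference in the 14 d effect, 0.38 ± 0.35, was not called (adjusted p = 0.531). Other chaperones of the endoplasmic reticulum were compared. Hspa5 (BiP), the main HSP70 of this compartment, differed by 0.01 ± 0.24 in BALB/c at 14 d and by -0.38 ± 0.24 in C57BL/6J. Hsp90b1 (GRP94) differed by -0.22 ± 0.23 and 0.09 ± 0.23, and none of these values was called. Of 16 such genes tested, 3 fell in BALB/c at 14 d and 0 rose, a share near the 13.3% of all probe sets called there: the disulfide isomerase Pdia4 by 1.05, the stress-response factor Ddit3 by 1.15 and the oxidase Ero1a by 0.61 on the log2 scale. The list median was -0.17 there against 0.06 over all genes. In C57BL/6J at 14 d 1 of the 16 fell, Creld2 by 0.58, beside 7.43% of all probe sets called.

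Serpinh1 encodes HSP47, a chaperone dedicated to collagen. Its level went with strain. On the 20 arrays other than saline 72 h, the 10 C57BL/6J arrays lay at 4785 to 6469 (median 5738) and the 10 BALB/c arrays at 2490 to 4772 (median 3629), without overlap. Of the probe sets tested, 1.02% separated these 20 arrays by strain in this way. The saline 72 h pair labelled C57BL/6J read 3505 and 2013, inside or below the BALB/c range, and the pair labelled BALB/c read 4786 and 4685, at the border between both ranges. Serpinh1 thus followed H2-Ea and not the label on the C57BL/6J-labelled pair.

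**Figure D3:**
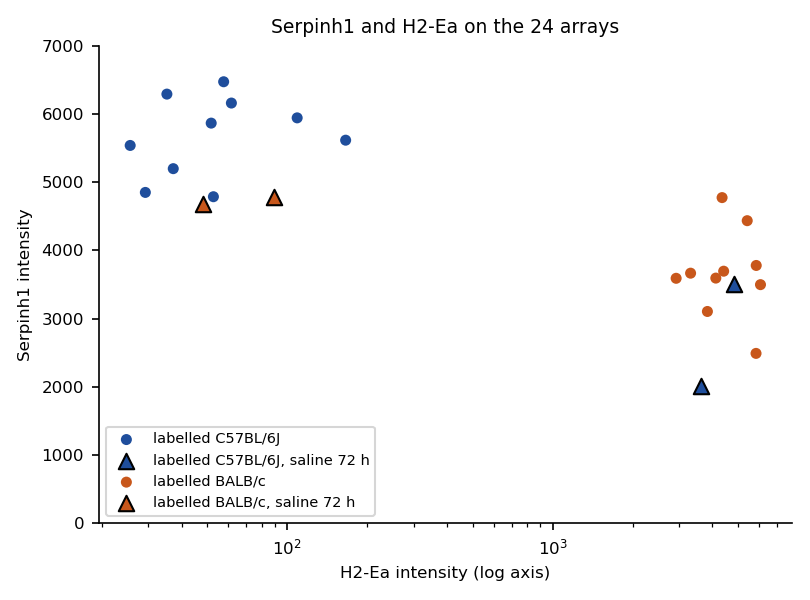
Serpinh1 intensity against H2-Ea intensity (log axis), 1 point per array, coloured by labelled strain, with triangles for the 4 saline 72 h arrays. The triangles labelled C57BL/6J, at Serpinh1 3505 and 2013, lie among the BALB/c arrays, and those labelled BALB/c, at 4786 and 4685, lie at the H2-Ea level of C57BL/6J.

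No effect of bleomycin on Serpinh1 was called at 24 h or 14 d. At 14 d it was at 5536 and 6469 after saline and 4848 and 5613 after bleomycin in C57BL/6J, and at 3778 and 2490 against 3497 and 4772 in BALB/c, overlapping in both strains. The log2 differences were -0.20 ± 0.24 (95% interval -0.70 to 0.31) and 0.40 ± 0.24 (-0.10 to 0.91). At 72 h as labelled it rose in C57BL/6J by 1.03 ± 0.24 (adjusted p = 0.0139), and the strain difference in effect was 1.50 ± 0.34 (adjusted p = 0.0172). Without the 4 saline 72 h arrays, using 24 h and 14 d saline as the control, these became -0.05 ± 0.19 (adjusted p = 0.902) and -0.01 ± 0.26 (adjusted p = 0.995). The call therefore rested on those arrays. Of the heat shock genes named beside it, Hsph1 differed at 72 h in C57BL/6J by 0.76 ± 0.32 and Hspa1b, an inducible HSP70, by 0.86 ± 0.26, and neither was called. Without the saline 72 h arrays these were -0.49 ± 0.27 and 0.11 ± 0.20.

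Lox, which oxidises lysines of collagen and elastin, rose on its bright probe set (160095_at) after bleomycin at 72 h in C57BL/6J and at 14 d in both strains. At 24 h no change was called: C57BL/6J lungs were at 497.1 and 779.7 after saline and 888.7 and 786.4 after bleomycin, and BALB/c lungs at 576.2 and 1332 against 652 and 695.5. At 72 h C57BL/6J lungs were at 589.9 and 520.6 after saline and at 1914 and 2255 after bleomycin. BALB/c lungs at 72 h were at 715.4 and 515.9 after saline and at 1028 and 1304 after bleomycin. Neither pair of groups overlapped. The log2 difference was 1.75 ± 0.33 in C57BL/6J, a 3.36-fold rise in intensity plus the offset of 92 (adjusted p = 0.00344), and 0.84 ± 0.33 in BALB/c (adjusted p = 0.337). Without the saline 72 h arrays it was 1.27 ± 0.30 in C57BL/6J (adjusted p = 0.0212), 0.63 ± 0.30 in BALB/c (adjusted p = 0.218) and 0.95 ± 0.21 over both strains (adjusted p = 0.00939). Against saline 14 d alone the C57BL/6J value was 0.93 and not called (adjusted p = 0.123).

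At 14 d Lox was higher on this probe set after bleomycin in both strains. In C57BL/6J it was at 703.9 and 1529 after saline and at 4037 and 2552 after bleomycin, the 2 highest values of the 24 arrays. In BALB/c it was at 549.5 and 609.2 after saline and at 1317 and 1637 after bleomycin. The groups did not overlap in either strain. The log2 difference was 1.54 ± 0.33 in C57BL/6J (adjusted p = 0.00985), 1.22 ± 0.33 in BALB/c (adjusted p = 0.0233) and 1.38 ± 0.23 over both (adjusted p = 0.0015). The effect grew by 1.37 ± 0.33 from 24 h to 14 d over both strains (adjusted p = 0.025), and this was called in 17 of the 24 fits that left out 1 array. Its strain difference was not called at any time, and at 14 d it was 0.32 ± 0.47 (95% interval -0.67 to 1.31), so a sizeable difference in either direction was not detectable with 2 arrays a group. Without array a of the bleomycin group or of the saline group the C57BL/6J 14 d call was lost, with an adjusted p of up to 0.163, and the BALB/c 14 d call was lost without bleomycin array b or either saline array. The dim second probe set (161177_f_at) did not rise at 14 d. In C57BL/6J it read 145.2 and 84.67 after saline against 63.28 and 106.7 after bleomycin. Fitted without the filter, it gave -0.22 ± 0.28 in C57BL/6J and -0.16 ± 0.28 in BALB/c (limma adjusted p = 0.77 and 0.793). Over both strains it gave -0.19 ± 0.20 (adjusted p = 0.627). The Lox rise at 14 d therefore rests on 1 of 2 probe sets.

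Loxl1, a lysyl oxidase needed for elastic fibre maintenance, was higher after bleomycin at 14 d in BALB/c. It was at 299.9 and 393.9 after saline and at 711.9 and 717.1 after bleomycin there, the 2 highest values of all arrays. C57BL/6J lungs at 14 d were at 353.5 and 385.6 after saline and at 382.6 and 542.1 after bleomycin, which overlapped. The log2 difference was 0.89 ± 0.18 in BALB/c (adjusted p = 0.00533) and 0.25 ± 0.18 in C57BL/6J (adjusted p = 0.456). The difference between the strains, -0.64 ± 0.26 (C57BL/6J minus BALB/c), was not called (adjusted p = 0.136). The BALB/c call was lost without bleomycin array b or saline array a, with an adjusted p of up to 0.0775. Over both strains Loxl1 rose by 0.57 ± 0.13 (adjusted p = 0.00869), a call lost without BALB/c saline 14 d array a (adjusted p = 0.0517). At 24 h and 72 h all Loxl1 values lay between 263.2 and 425.3, with no call.

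Elastin (Eln), the other main substrate of both lysyl oxidases, had 2 probe sets that moved in opposite directions, so the gene has no single direction in these data. The first (92207_at) rose at 14 d by 1.94 ± 0.36 in C57BL/6J and 2.48 ± 0.36 in BALB/c (adjusted p = 0.00385 and 0.000653). In BALB/c it went from 333 and 516 to 2530 and 2950. The second (92836_at) fell by 2.79 ± 0.44 in C57BL/6J and fell by 4.08 ± 0.44 in BALB/c on the log2 scale (adjusted p = 0.00151 and 0.000121). In BALB/c it went from 6090 and 7120 to 457 and 192. The probe-level basis of this disagreement was not tested.

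Bmp1, the procollagen C-proteinase, rose at 14 d in both strains on its first probe set (95557_at). In C57BL/6J it was at 818.3 and 705.9 after saline and at 1349 and 1126 after bleomycin. In BALB/c it was at 475.8 and 546.2 after saline and at 879.1 and 1174 after bleomycin. All 4 bleomycin arrays of 14 d were higher than all 20 others. The log2 difference was 0.64 ± 0.17 in C57BL/6J (adjusted p = 0.0298), 0.88 ± 0.17 in BALB/c (adjusted p = 0.00383) and 0.76 ± 0.12 over both (adjusted p = 0.000863), and it grew by 0.78 ± 0.17 from 24 h to 14 d (adjusted p = 0.0167). The second Bmp1 probe set (92701_at) gave 0.58 ± 0.21 in C57BL/6J (adjusted p = 0.106) and -0.02 ± 0.21 in BALB/c (adjusted p = 0.962), where the groups were at 640.6 and 634.4 against 639 and 615.8, and 0.28 ± 0.15 over both strains (adjusted p = 0.236). The probe sets correlated at r = 0.219 over the 24 arrays, so the rise in BALB/c rests on 1 of 2 probe sets. The first probe set's call was lost in C57BL/6J without bleomycin array a or either saline array, with array weights or with the C57BL/6J arrays alone, and in BALB/c without bleomycin array b or saline array a, and over both strains it held without any 1 of the 24 arrays. Tgfb1, which is known to induce BMP1 in cultured cells, differed by 0.17 ± 0.32 in C57BL/6J and rose by 1.28 ± 0.32 in BALB/c at 14 d (adjusted p = 0.0161).

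Pcolce, which enhances BMP1 activity on procollagen, was called in no comparison. In some groups the arrays lay far apart, as in BALB/c bleomycin 24 h with 1943 and 4871. At 14 d it was at 3154 and 4769 after saline and 2907 and 4041 after bleomycin in C57BL/6J, and at 2900 and 2728 against 3324 and 3581 in BALB/c, where the groups did not overlap. The log2 differences were -0.17 ± 0.36 (95% interval -0.94 to 0.59) and 0.29 ± 0.36 (-0.48 to 1.05), so changes of about 1 on the log2 scale were within the interval in BALB/c.

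Member calls were counted over the 11 tested probe sets and set beside the share of all probe sets called. At 24 h limma called 0 of 11 in C57BL/6J, where 2.23% of all 8710 probe sets were called and 0 of the 11 had an unadjusted p under 0.05. In BALB/c it also called 0, beside 0.218% of all probe sets and 3 members under an unadjusted 0.05 (P4ha1, P4ha2 and Bmp1 92701_at), and over both strains 0, beside 3.04% and 1 member. At 72 h 2 rose in C57BL/6J, against 6.61% of all probe sets called, 0 were called in BALB/c (1.32%, with 2 members under an unadjusted 0.05), and 1 over both strains (3.21%). Without the saline 72 h arrays 1 rose in C57BL/6J (5.99%), 0 were called in BALB/c (6.04%, with 2 under an unadjusted 0.05) and 1 rose over both strains (12.3%), and the member called was Lox. When C57BL/6J saline 14 d replaced the control of 24 h, 1 of 11 fell in C57BL/6J (4.94%) and 1 over both strains (5.81%), P4ha2 in both cases.

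At 14 d 2 members rose and 1 fell in C57BL/6J, beside 7.43% of all probe sets called. In BALB/c 3 rose and 1 fell, beside 13.3%, and over both strains 3 rose and 0 fell, beside 12.1%. Lox, Loxl1 and Bmp1, which act outside the cell, were the 3 that rose over both strains. For Lox and Bmp1 this held on 1 of 2 probe sets. Bmp1 92701_at differed by 0.28 ± 0.15 (limma adjusted p = 0.236), and the dim second Lox probe set was not tested. Loxl1 was not called in C57BL/6J alone (0.25 ± 0.18, adjusted p = 0.456). Pcolce, which acts outside the cell too, was not called, and none of the 6 probe sets of the prolyl hydroxylases and Serpinh1 was called over both strains. The strain difference in effect was called for 0 members at 24 h (0.023% of all probe sets, with 2 members under an unadjusted 0.05), 1 at 72 h (3.08%) and 2 at 14 d (7.43%). Without the saline 72 h arrays the 72 h count was 0 (0.907%, with 0 under an unadjusted 0.05). From 24 h to 14 d the effect of 2 members grew, beside 5.58% of all probe sets, and of 4 with the other 24 h control (15.8%), when P4ha2 and Loxl1 joined Lox and Bmp1.

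**Figure D4:**
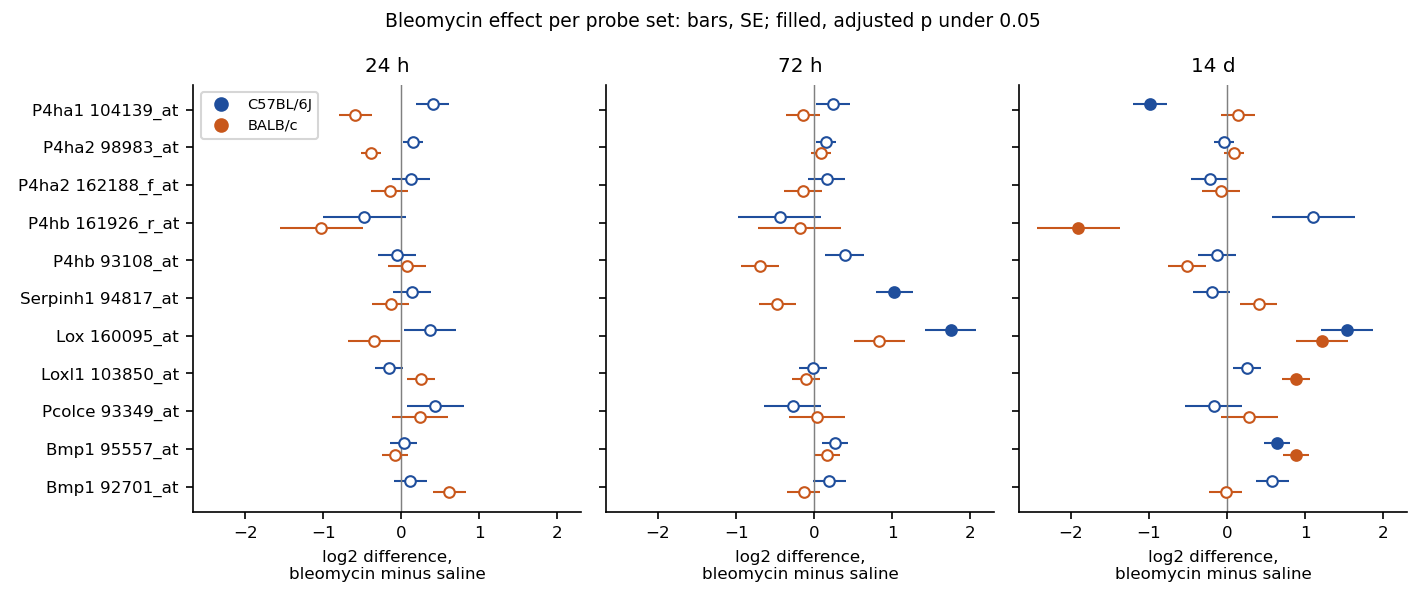
Log2 difference between bleomycin and saline (bars, SE) for the 11 tested probe sets at each time, by strain, with called differences filled. Filled points are absent at 24 h, and at 14 d Lox and Bmp1 95557_at are filled to the right of 0 in both strains.

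The strains were also compared within each treatment, over the 3 times. After saline, limma called 0 of 11 probe sets as labelled (2.66% of all, with 0 under an unadjusted 0.05). Without the saline 72 h arrays it called 1 (10.1%), Serpinh1, higher in C57BL/6J by 0.70 ± 0.15 (adjusted p = 0.00906). After bleomycin, a comparison added after the data were seen because the saline 72 h arrays do not enter it, 5 of 11 were higher in C57BL/6J and 0 lower, beside 11.7% of all probe sets. Serpinh1 was higher by 0.59 ± 0.14 (adjusted p = 0.0103), Lox by 0.72 ± 0.19 (adjusted p = 0.0213), P4ha2 98983_at by 0.24 ± 0.07 (adjusted p = 0.0422), and P4hb by 0.99 ± 0.31 on the bright probe set (adjusted p = 0.0426) and 0.57 ± 0.14 on the dim one (adjusted p = 0.0152). The dim P4hb probe set lay near the filter, at 163 to 241 on the 10 C57BL/6J arrays and 53.1 to 179 on the 10 BALB/c arrays of the 20. It was above the filter only on C57BL/6J arrays and on the saline 72 h pair labelled BALB/c, which had the H2-Ea level of C57BL/6J. It was thus tested only because of arrays where it is high, and its place among the 5 calls is a description and not support for a strain difference. Without the saline 72 h arrays, which share only the estimate of spread, the P4ha2 and bright P4hb calls were lost. Leaving out single arrays gave 1 to 5 calls, and Serpinh1 was called each time but not with quantile normalization (adjusted p = 0.0646).

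The genes whose products the members act on were set beside them. Of 6 fibrillar collagen genes tested, 4 rose in C57BL/6J at 14 d and 2 in BALB/c, with medians of 0.97 and 0.55 on the log2 scale against -0.07 and 0.06 over all genes. Over both strains 5 of 6 rose. Of all probe sets, 7.43% were called at 14 d in C57BL/6J, 13.3% in BALB/c and 12.1% over both strains. Col5a2, a minor fibrillar chain, rose by 1.64 ± 0.23 and 1.14 ± 0.23 (adjusted p = 0.000693 and 0.00555). Col1a2 rose by 1.21 ± 0.20 and 0.72 ± 0.20 (adjusted p = 0.00162 and 0.023). Col3a1 rose in C57BL/6J by 0.87 ± 0.25 (adjusted p = 0.0419) and in BALB/c differed by 0.38 ± 0.25. Col1a1, the main chain of type I collagen, differed by 0.56 ± 0.29 and 0.75 ± 0.29, called only over both strains at 0.65 ± 0.20 (adjusted p = 0.0433). Of 19 other collagen genes, 6 rose over both strains at 14 d and 0 fell, among them Col7a1 by 1.01 and Col6a2 by 0.86.

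**Figure D5:**
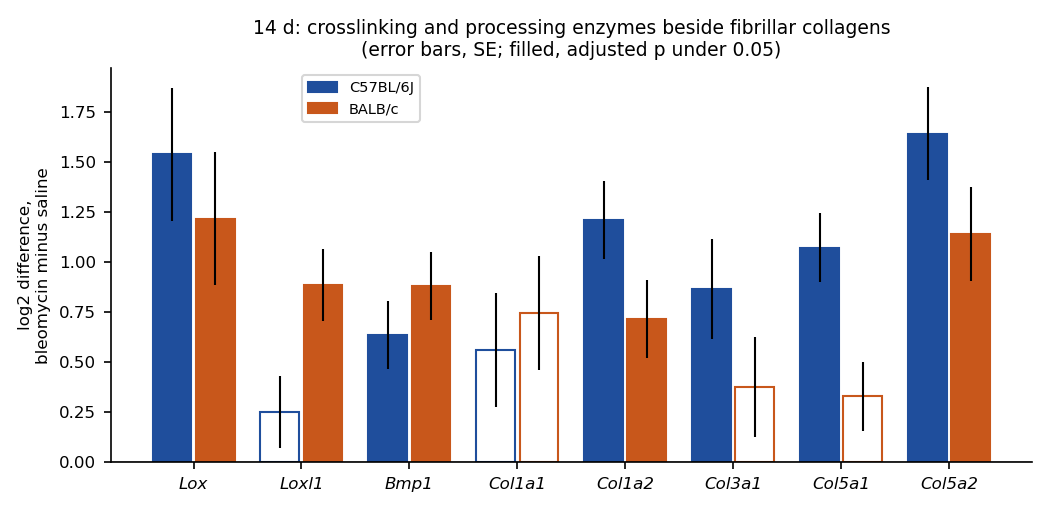
Log2 difference between bleomycin and saline at 14 d (error bars, SE) for Lox, Loxl1, Bmp1 and 5 fibrillar collagen genes, by strain, with called differences filled. Lox (1.54 and 1.22) and Col5a2 (1.64 and 1.14) show the tallest bars in both strains.

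Of 12 other genes of collagen modification and processing tested (14 of 30 listed were on the array), 2 rose and 0 fell over both strains at 14 d. These were Ctsk, cathepsin K, a collagen-degrading protease, by 1.61 ± 0.17 (adjusted p = 3.9e-05), and Crtap, part of the prolyl 3-hydroxylase complex, by 0.59 ± 0.11 (adjusted p = 0.00235). The list median was 0.16 against -0.02 over all genes, and the share of the list called was near the 12.1% of all probe sets called in this comparison. The TGF-beta and hypoxia counts that follow stand beside the same 12.1%. Of 13 TGF-beta pathway genes, 6 rose and 1 fell, led by Ccn2 (CTGF) at 1.37, Fst (follistatin) at 1.92 and Ltbp2 at 0.83, with Tgfbr3 down by 0.61. Of 10 genes known to respond to hypoxia, 2 rose and 2 fell (median 0.26): Ndrg1 by 0.57 and Adm by 0.76 upward, Bnip3 by 0.45 and Vegfa by 0.51 downward. All lists were chosen with earlier results of these data known, so their counts are descriptions.

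Cell type markers moved at 14 d too, and their counts over both strains stand beside 12.1% of all probe sets called and a median of -0.02 over all genes. Of 11 macrophage markers 7 rose over both strains and 0 fell (median 0.84). Their summed intensity in C57BL/6J went from 25250 and 24410 after saline to 50480 and 33390 after bleomycin, and in BALB/c it was 25810 and 26090 against 30730 and 25350. Of 12 fibroblast markers 4 rose and 1 fell (median 0.40), with sums of 28300 and 24760 against 42620 and 31030 in C57BL/6J and of 26390 and 27100 against 28830 and 24420 in BALB/c. Of 7 smooth muscle and myofibroblast markers 2 rose and 0 fell (median 0.36), with sums of 11310 and 10790 against 17400 and 13350 in C57BL/6J and of 8402 and 8829 against 10690 and 12720 in BALB/c. Of 5 mesothelial markers 3 rose and 0 fell (median 0.58), with sums of 9407 and 7718 against 12790 and 11660 and of 6913 and 7337 against 8314 and 10850. The mesothelial list names Krt8 and Krt18, keratins that other epithelial cells also express, so its sum is not specific to mesothelial cells. The smooth muscle and mesothelial sums were thus higher on every bleomycin array of 14 d than on either saline array of the same strain, as Lox and Bmp1 95557_at were. Of 9 cardiac muscle markers 6 fell (median -0.50), from sums of 18310 and 17020 to 7755 and 10810 in C57BL/6J, while in BALB/c they were 18540 and 18350 against 16020 and 16660. In BALB/c the summed alveolar type 2 markers went from 25580 and 23230 to 15440 and 7814, the alveolar type 1 markers from 24580 and 22490 to 12460 and 8975 and the endothelial markers from 35540 and 34920 to 27350 and 26910. In C57BL/6J the arrays of these groups overlapped. The type 2 sums were 20580 and 10930 against 49560 and 14290, and the type 1 sums 17980 and 10860 against 32110 and 15960. The endothelial sums there were 39820 and 30390 against 36740 and 30300. In C57BL/6J the T and B cell sum went from 8509 and 9594 to 4052 and 5797, and in BALB/c it was 9799 and 7497 against 7861 and 8297. None of the listed markers was at 0 on any array, and the part of cell composition in the Lox, Loxl1 and Bmp1 results was not tested.

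Across the 24 arrays the members did not follow a single pattern. The highest correlation between probe sets of different members was 0.764, between Lox and Bmp1 95557_at, and the lowest -0.319, between P4hb 161926_r_at and Bmp1 92701_at. On the 18 arrays left without the saline 72 h and C57BL/6J saline 24 h arrays these were 0.784 and -0.192, and the lowest was -0.394, between P4ha1 and Bmp1 92701_at. By Pearson correlation over the same arrays, which share strain, treatment and time, the 3 genes most like Lox were Col5a2 (r = 0.904), Fcgr2b (0.889), an Fc receptor of myeloid and B cells, and C1qb (0.881), a complement subunit made by macrophages. The genes most like Bmp1 were Rab11fip5 (0.915), Dap (0.898) and Ltbp2 (0.888), a protein of the extracellular matrix. Those most like Loxl1 were H2ax (0.813), Ccnb2 (0.802), a mitotic cyclin, and Nnat (0.771). Serpinh1 was nearest to Qsox1 (0.843), an enzyme that forms disulfide bonds, Atp6v1d (0.841) and Chmp2a (0.838). P4ha1 was nearest to Dusp16 (0.828), Hsph1 (0.808) and Coa3 (0.775), P4ha2 to Nde1 (0.802), Cdc37 (0.787) and Wipi2 (0.784), and P4hb to Thrap3 (0.867), Zfp94 (0.847) and Anapc5 (0.826). The closest genes to Pcolce, Aebp2 (0.771), Ppm1m (0.688) and Serpinf2 (0.687), gave the lowest values of the 8 members. On the 18 arrays the 3 genes named for Lox and for Bmp1 were still the 3 nearest in another order. Those of Loxl1 ranked within the first 6, those of P4hb also, and those of Serpinh1 9, 26 and 14 (r from 0.802 to 0.836), while Wipi2 ranked 10 for P4ha2, Serpinf2 13 for Pcolce and Coa3 16 for P4ha1.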

How the data were processed

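The authors deposited a table of intensities on a linear scale, with a value for each probe set on each array. Their trimmed mean (2nd to 98th percentile) is 799.9 on every array, from which a scaling before deposit is inferred. The summarisation method and the genome build are not given in the sources used here. Probe sets were named from the platform annotation, in which 10833 have 1 gene, 396 several and 1193 none. An offset of 92 was added before log2. Of 12422 probe sets without controls, 8710 that were above 225.7 (the 40th percentile) on at least 2 arrays were tested with limma 3.58.1 in R 4.3.3. The model had a mean for each of the 12 groups, 12 residual degrees of freedom, a variance trend and Benjamini-Hochberg adjustment over all 8710, two-sided, with an adjusted p under 0.05 called. Groups came from the sample titles. Gene lists used the brightest single-gene probe set of each gene. The members and lists were chosen with earlier results of these data known. All member probe sets are described. From each list up to 4 genes with the smallest p are named, and Col1a1, Col3a1, Hspa5, Hsp90b1, Hspa1b, Hsph1, Tgfb1 and Eln always. The 3 genes with the highest Pearson correlation to each member are also named. The number of arrays limits the precision. The script was tested on simulated data. The alternatives were other normalizations, offsets, filters, variance models, controls and array sets.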

Additional observations from a re-analysis of the deposited data

Results flagged for a closer look

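The bleomycin effect differed between the strains, by the test of the difference itself (C57BL/6J minus BALB/c, limma adjusted p), for 3 probe sets. Serpinh1 differed at 72 h by 1.50 (adjusted p = 0.0172), and by -0.01 without the 4 saline 72 h arrays. P4ha1 differed at 14 d by -1.13 (adjusted p = 0.0346), with the highest values of the series on the C57BL/6J saline 14 d arrays. P4hb 161926_r_at differed at 14 d by 3.01 (adjusted p = 0.0268), and its second probe set by 0.38 (adjusted p = 0.531).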

How the results depend on the processing

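Each of the 165 values (11 probe sets in 15 comparisons, 23 called) was recomputed under up to 14 of 15 settings, 1 of them chosen after the data were seen (saline 14 d as the only control, without the saline 72 h and C57BL/6J saline 24 h arrays), and without each array in turn. Of 6035 alternative values 5902 kept direction and side of the threshold, 105 lost a call, 19 gained one and 9 changed sign, where differences called in neither form were not scored for sign. Lox over both strains at 72 h and 14 d, Bmp1 95557_at over both strains at 14 d and its change from 24 h to 14 d were called in all. The sign changes were those of P4ha2 98983_at in C57BL/6J at 24 h (-0.58 with saline 14 d as the 24 h control or as the only control) and at 14 d (0.36 with all saline arrays as control), P4ha1 in C57BL/6J at 72 h (-0.79 with saline 14 d only), and Serpinh1 at 72 h in C57BL/6J (-0.053 without the saline 72 h arrays, -0.12 with saline 14 d only) and in the strain difference (-0.006 without them, -0.12 with their strain labels exchanged, -0.25 with saline 14 d only). Replacing or leaving out control arrays caused these by construction, and the cause of the other moves was not tested.

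Counts of called members moved as follows. At 24 h the C57BL/6J count went from 0 to 1 with either saline 14 d control, and the count over both strains from 0 to 1 with these or with all saline arrays. At 72 h the C57BL/6J count went from 2 to 1 (with saline 14 d only, both rises were lost and P4ha1 was called lower), and the strain difference in effect from 1 to 0, without the saline 72 h arrays, with their labels exchanged, with all saline arrays or with saline 14 d only, and the latter also to 0 with quantile normalization. At 14 d array weights took the C57BL/6J count from 3 to 1 and the strain difference from 2 to 0, and all saline arrays took the latter to 1. All saline arrays also turned C57BL/6J from 2 higher and 1 lower to 4 higher and 0 lower, where P4ha1 was lost and P4ha2 98983_at and Bmp1 92701_at were gained. The strain difference after saline went from 0 to 1 without the saline 72 h arrays, to 2 with their labels exchanged and to 3 with saline 14 d only. After bleomycin it went from 5 to 3 with no variance trend, array weights, the replicate block, no saline 72 h arrays or saline 14 d only. The change from 24 h to 14 d went from 2 to 4 with either saline 14 d control or all saline arrays.

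Without each array in turn, the counts ran from 0 to 0 at 24 h in C57BL/6J, in BALB/c, over both strains and for the strain difference, and likewise at 72 h in BALB/c and for the strain difference after saline. They ran from 1 to 2 at 72 h in C57BL/6J, 1 to 1 over both strains and 0 to 1 for the strain difference there. At 14 d they ran from 0 to 3 in C57BL/6J (0 without bleomycin array a), 0 to 4 in BALB/c (0 without bleomycin array b or saline array a), 2 to 4 over both and 0 to 2 for the strain difference, with 1 to 5 after bleomycin and 1 to 2 for the change over time. No pairing by array letter common to the groups was seen. Over 66 pairs of groups, deviations of arrays with the same letter correlated from -0.285 to 0.309 (median 0.006), and 14 pairs were over 0.1. With 2 arrays a group, this check cannot exclude pairing in some of the groups. With the letter as a replicate block the count after bleomycin fell from 5 to 3, and no other count of called members moved by more than 1.5 times.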

Other observations

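Of 10 proliferation markers tested at 14 d, 6 rose in BALB/c, beside 13.3% of all probe sets called (median 0.65 on the log2 scale against 0.06 over all genes). In C57BL/6J 2 rose, beside 7.43% (median 0.36 against -0.07). Cdk1, the mitotic kinase, rose by 1.36 ± 0.21 in BALB/c (limma adjusted p = 0.00107) and 0.78 ± 0.21 in C57BL/6J (adjusted p = 0.0327), and Ccnb2 by 0.92 ± 0.15 and 0.67 ± 0.15. Their strain differences in effect were not called (adjusted p = 0.243 for Cdk1 and 0.486 for Ccnb2).

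Of 14 genes of fibril partners and elastic fibre substrates tested at 14 d, 3 rose and 2 fell in C57BL/6J (median 0.30 against -0.07 over all genes), and 2 rose and 3 fell in BALB/c (median 0.12 against 0.06). Of all probe sets, 7.43% were called at 14 d in C57BL/6J and 13.3% in BALB/c. Lists count a gene on its brightest probe set, which for Eln is 92836_at, the one of its 2 that fell. Fbln2, fibulin 2, rose in C57BL/6J by 1.95 ± 0.20 and differed by 0.22 ± 0.20 in BALB/c. This strain difference of 1.74 ± 0.28 was called (adjusted p = 0.00315). In BALB/c Bgn, the proteoglycan biglycan, fell by 1.60 and Fn1, fibronectin, by 1.46 on the log2 scale (adjusted p = 0.0168 each), while their strain differences were not called (adjusted p = 0.0673 and 0.132).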
